A study of Mus musculus with 6 samples.

Results

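The 9 genes described here encode enzymes and inhibitors that work on the outside of cells: the plasminogen activators Plat and Plau, the receptor gene Plaur, the serpin gene Serpine2, the tissue inhibitors Timp1, Timp2 and Timp3, and the metalloproteases Mmp2 and Mmp14. They were taken by symbol from the 27151 gene IDs of the deposited table. All 9 were found, each under a single ID, and all 9 were among the 12181 genes with a mean of at least 1 FPKM that were tested. FPKM is the number of sequenced fragments relative to the exon length of the gene and the size of the library. RNA was sequenced from granulosa cells of mouse ovaries, the somatic cells around the oocyte, in 3 control libraries and 3 libraries from cells given GSK4112, an agonist of the nuclear receptor NR1D1 (REV-ERBα). Per the labels' protocols both groups were released from follicles in a medium with milrinone, grown for 24 h in DMEM/F12 with 10% serum, starved of serum for 12 h and kept for 24 h with or without the agonist. The design text speaks of treatment in vivo. The labels name no genotype, strain, age or vehicle. They also do not say whether the libraries of a group came from separate animals or cultures, so the p-values rest on a spread between libraries that may be technical.

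Urokinase (Plau) and tissue plasminogen activator (Plat) are serine proteases that cut plasminogen into plasmin, which degrades fibrin and matrix proteins. Urokinase is held at the cell surface by its receptor, the product of Plaur, and both activators are inhibited by serpins such as protease nexin 1, the product of Serpine2. The metalloproteases degrade collagens and other matrix proteins, and the TIMP proteins inhibit them. In the ovary these systems are known for the remodelling of the follicle wall around ovulation.

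Granulosa markers were present in all libraries: Foxl2, a transcription factor of granulosa identity, lay between 29.9 and 64.4 FPKM, and Inha, the inhibin alpha subunit gene, between 1370 and 2245 FPKM. Of 10 granulosa markers, 8 had a mean of at least 1 FPKM, and Amh and the aromatase gene Cyp19a1 stayed below 1 FPKM in every library. The 10 summed to between 2394 and 2733 FPKM in control and between 1694 and 2465 FPKM in GSK4112. Hsd17b1, an enzyme gene of estradiol synthesis, and the follistatin gene Fst fell in limma without the block described below (log2 differences -1.32 and -1.56, adjusted p = 0.0187 each), and the inhibin beta A gene Inhba fell with it (-1.56; adjusted p = 0.102 without and 0.0266 with the block). Whether these differences have a part in those of the protease genes was not tested. Both libraries numbered 1 stood apart. Their scores on the leading principal component (49.4% of the variance) were -38.6 in control and -13.4 in GSK4112. Replicates 2 and 3 scored 1.05 and 2.29 in control and 26.6 and 22.1 in GSK4112. The score was thus also higher with GSK4112 within each same-numbered pair, so this component did not follow the replicate number alone. The summed level of 8 mitosis genes was 114 and 85.95 FPKM in the replicate 1 libraries and 14.05 to 32.05 FPKM in the rest. It was also lower with GSK4112 within each same-numbered pair, at 114 and 85.95, 29.1 and 15.7, and 32.05 and 14.05 FPKM. Of the 8, none passed without the block and 4 fell with it (Top2a, Ccnb1, Cdk1 and Plk1, limma adjusted p = 0.0356, 0.0257, 0.0113 and 0.0307). Each result is therefore given without a term for the replicate number, with that number as a block where this changes the call, and without both replicate 1 libraries where this matters. The block compares libraries of the same number, a pairing that no label states.

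None of the 9 genes passed an adjusted p of 0.05 in limma without the block, in which 1.03% of all tested genes passed. At an unadjusted p under 0.05 there were 3 (Plau, Serpine2 and Plat), where 17% of all tested genes were under it. Limma-voom on fragments recovered from the FPKM values called 0 of the 9 and 1.4% of all genes. With the replicate block 3 of 9 fell (Plau, Serpine2 and Timp3) and none rose, where 6.89% of all tested genes changed and 3.82% fell. Without both replicate 1 libraries 4 passed, where 7.03% of all genes did: the same 3 were lower and Plat was higher. The same 4 passed when the block was added to that (9.35% of all genes), and 3 passed with sample weights (Plau, Serpine2 and Plat; 6.81% of all genes). By mean level over the 6 libraries the order was Timp1 (78.3 FPKM), Timp2 (59.3), Serpine2 (57.6), Plau (39.5), Mmp14 (24.3), Timp3 (22.3), Plat (6.28), Mmp2 (5.05) and Plaur (1.63). Within a group the order differed: Serpine2 lay above Timp2 in control (72.8 and 57.3 FPKM) and Mmp14 above Plau in GSK4112 (26.1 and 22.8). Neighbours in the order of means overlapped in their values over the libraries except Timp3 and Plat. The members and lists were chosen with earlier results of these data known, so the count describes these genes and is no independent evidence.

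**Figure D1:**
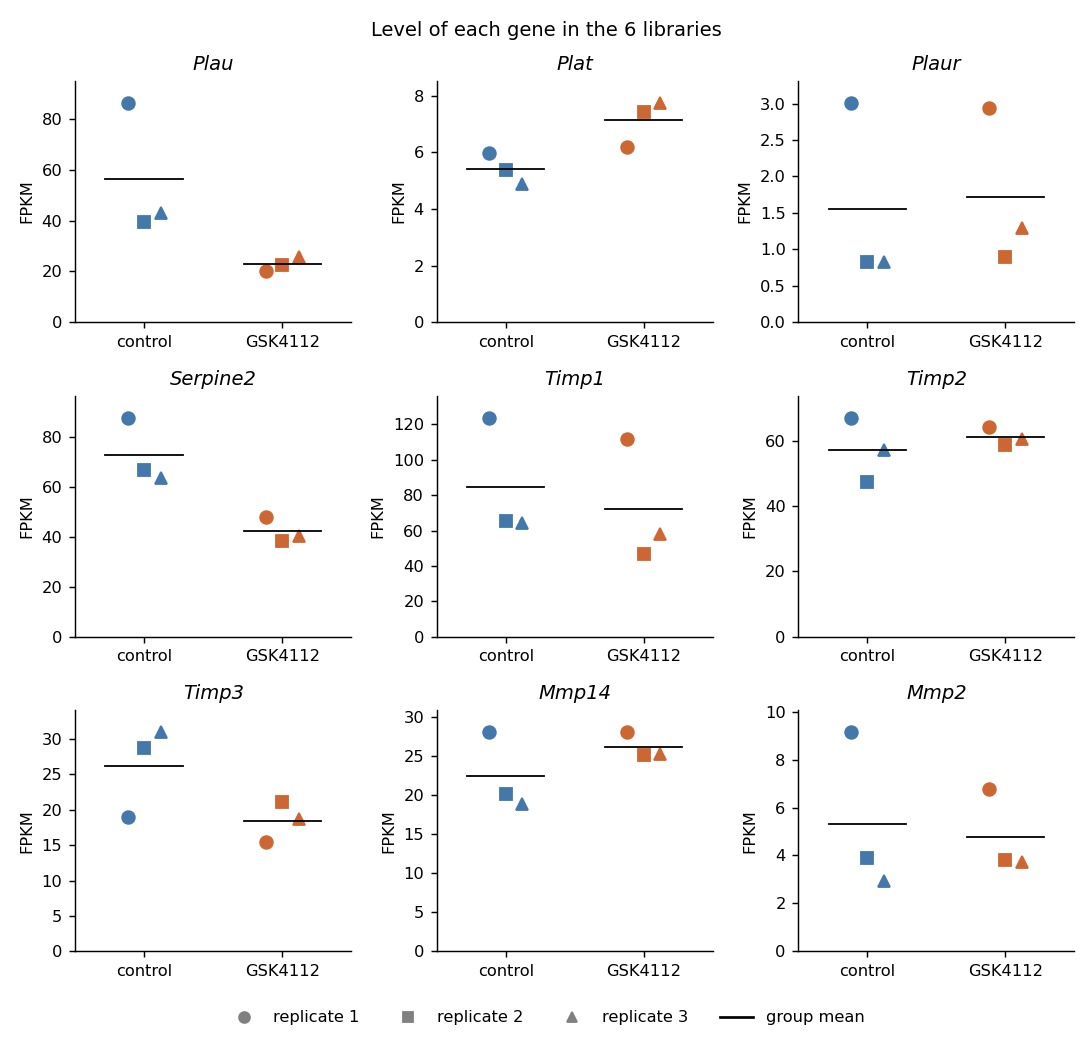
FPKM of each of the 9 genes (y axis, linear and starting at 0) in the 3 control libraries (blue) and the 3 GSK4112 libraries (orange), with marker shape for the replicate number and a line at the group mean. The groups do not overlap for Plau and Serpine2 (lower with GSK4112, as for 7.9% of all tested genes) and for Plat (higher, as for 15.7%). Plaur, Timp1 and Mmp2 are highest in the replicate 1 libraries of both groups, as are Serpine2, Timp2 and Mmp14 by a smaller margin.

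Among the activators, Plau (chromosome 14, 20836660 to 20843385, plus strand, GRCm38) was at 86.4, 39.4 and 43.1 FPKM in control replicates 1, 2 and 3. In the GSK4112 replicates it was at 20.1, 22.6 and 25.7 FPKM. Every GSK4112 library lay below every control library, and control replicate 1 was about 2.09 times the mean of the other controls. The mean level was 56.3 ± 26.1 FPKM (SD, n = 3) in control and 22.8 ± 2.82 FPKM in GSK4112, 2.47 times lower. The log2(FPKM + 1) difference was -1.18 ± 0.29 (SE), with a limma adjusted p of 0.118 without and 0.048 with the block; over the alternatives the adjusted p ran from 0.0019 to 0.3675. The difference was -2.05 in the replicate 1 pair and -0.78 and -0.72 in the pairs of replicates 2 and 3. Without both replicate 1 libraries it was -0.75 ± 0.10 (adjusted p = 0.0149), from means of 41.3 and 24.1 FPKM. The urokinase gene was thus lower in all 3 pairs, as were 18.6% of all tested genes, and the size of its difference depended on control replicate 1. Leaving out that library alone gave a difference of -0.83 and an adjusted p of 0.0454 in limma without the block.

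Plat (chromosome 8, 22757727 to 22782844, plus strand) was far less abundant and was displaced the other way. It was at 5.98, 5.38 and 4.90 FPKM in control replicates 1, 2 and 3 and at 6.21, 7.44 and 7.75 FPKM in the GSK4112 replicates. All GSK4112 values were above all control values, a separation shown upward by 15.7% and downward by 7.9% of the genes tested. The replicate 1 pair differed by 0.05 on the log2 scale and the other pairs by 0.40 and 0.57. Overall the log2 difference was 0.34 ± 0.11 (SE; 95% interval 0.07 to 0.61) with a limma adjusted p of 0.211 without the block, and 0.149 with it. It passed without both replicate 1 libraries (0.49 ± 0.10, adjusted p = 0.0453; range over the alternatives 0.0409 to 0.5438) and with sample weights. With scaling by the median of ratios, which moved the median difference of all genes from 0.05 to -0.0007, Plat kept its direction. Its difference was then smaller, at 0.28 (limma adjusted p = 0.31).

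Since FPKM is a value per length, the levels of the activators can be set side by side within a library. The ratio of Plau to Plat was 14.4, 7.32 and 8.79 in control replicates 1, 2 and 3 and 3.23, 3.04 and 3.31 in the GSK4112 replicates. The groups did not overlap, which follows from the separation of Plau downward and of Plat upward and adds nothing to it. For the same reason an exact permutation test (two-sided) could only give p = 0.1, below which groups of 3 cannot go. Plau was the more abundant transcript in every library. This ratio and those given below were chosen after the values were seen.

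**Figure D2:**
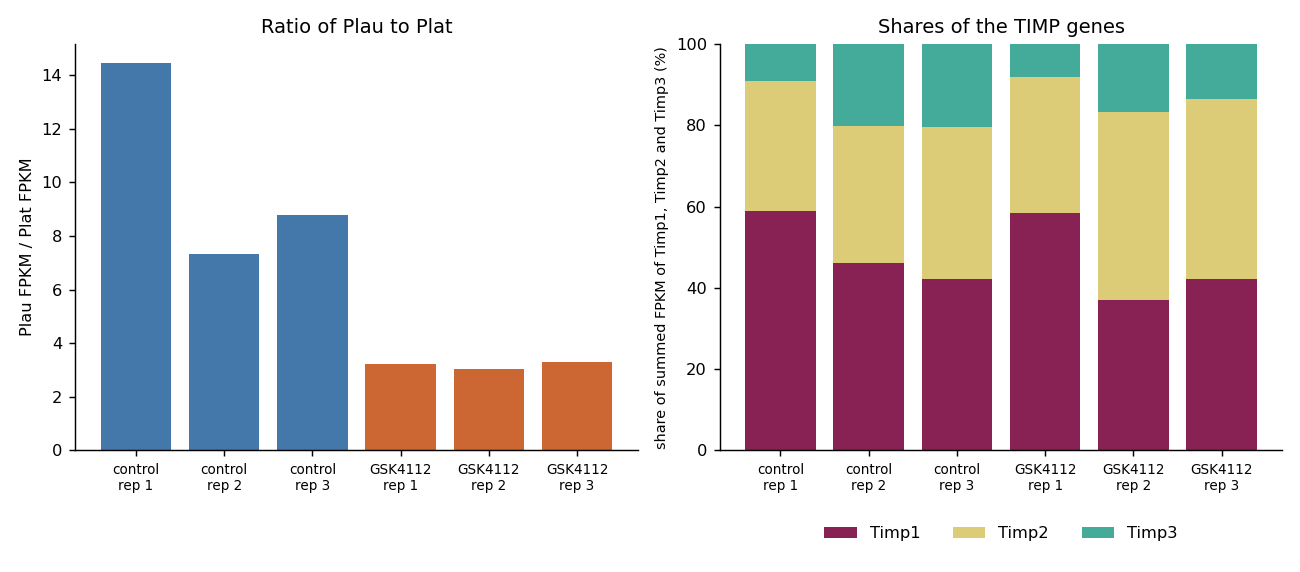
Left, the ratio of Plau to Plat FPKM in each library (bars from 0, control blue, GSK4112 orange); right, the shares of Timp1, Timp2 and Timp3 in their summed FPKM in each library. The ratio is 7.32 to 14.4 in control and 3.04 to 3.31 in GSK4112, and Timp1 holds its largest shares, 58.98% and 58.3%, in the replicate 1 libraries.

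Plaur, the urokinase receptor gene (chromosome 7, 24462484 to 24475968, plus strand), was the least abundant of the 9, resting on 36 to 143 recovered fragments per library. It was at 3.01, 0.819 and 0.827 FPKM in control replicates 1, 2 and 3 and at 2.94, 0.90 and 1.30 FPKM in the GSK4112 replicates. The groups overlapped, and the replicate 1 libraries were the high ones in both. Its log2 difference was 0.12 ± 0.40 (SE; 95% interval -0.83 to 1.07; limma adjusted p = 0.907).

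Serpine2 (chromosome 1, 79794197 to 79861180, minus strand), whose product inhibits urokinase, tissue plasminogen activator and thrombin, was also lower. It was at 87.9, 66.9 and 63.8 FPKM in control replicates 1, 2 and 3 and at 48.02, 38.5 and 40.5 FPKM in the GSK4112 replicates. Each GSK4112 library lay below each control library and below its same-numbered control by 0.86, 0.78 and 0.64 on the log2 scale. The means were 72.8 ± 13.1 and 42.3 ± 5.01 FPKM (SD, n = 3), 1.72 times lower with GSK4112. The log2 difference was -0.76 ± 0.15 (SE), with a limma adjusted p of 0.0747 without and 0.0093 with the block (range over the alternatives 0.0019 to 0.3092). Without both replicate 1 libraries it was -0.71 ± 0.09 (adjusted p = 0.0103). Of the 9 genes it had the lowest unadjusted p in the fit without the block, at rank 251 of the 12181 genes. Urokinase and this inhibitor were thus both lower, and the ratio of Serpine2 to Plau overlapped between the groups, at 1.02, 1.70 and 1.48 in control and 2.39, 1.70 and 1.58 in GSK4112.

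Promoter sequences were taken from RefSeq (GRCm38.p6), which held an entry for 6 of the 9 genes. Plat, Plau and Mmp2 were not matched. Shown are those of Serpine2 and Timp3, both lower with the block, and that of Plaur, which differed by replicate number, 5′ to 3′ from 250 bases before the RefSeq start and ending before the next annotated exon base. The Serpine2 stretch lies inside the annotated gene, which extends upstream of this RefSeq start. Serpine2 is chr1:79858697-79858915 (minus strand), Timp3 chr10:86300162-86300371 (plus strand) and Plaur chr7:24462233-24462482 (plus strand). Capitals mark matches on either strand to GGGCGG (the GC box bound by SP factors) or TGANTCA (the AP-1 site).
Serpine2: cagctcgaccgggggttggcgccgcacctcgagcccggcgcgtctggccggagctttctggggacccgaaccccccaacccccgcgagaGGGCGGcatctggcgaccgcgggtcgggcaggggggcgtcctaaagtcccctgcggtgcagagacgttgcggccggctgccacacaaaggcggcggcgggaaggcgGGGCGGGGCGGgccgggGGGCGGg
Timp3: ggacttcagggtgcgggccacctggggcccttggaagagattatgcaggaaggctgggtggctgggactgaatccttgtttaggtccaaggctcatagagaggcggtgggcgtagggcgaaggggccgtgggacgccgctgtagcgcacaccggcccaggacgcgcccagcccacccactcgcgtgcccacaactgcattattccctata
Plaur: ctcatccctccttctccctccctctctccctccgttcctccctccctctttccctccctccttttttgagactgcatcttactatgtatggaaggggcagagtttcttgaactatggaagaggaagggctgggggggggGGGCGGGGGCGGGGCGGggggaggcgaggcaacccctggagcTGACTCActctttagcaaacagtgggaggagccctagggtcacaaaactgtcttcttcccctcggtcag

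Both strands of the whole 300-base windows were searched for 6 motifs. The Serpine2 window held 6 matches to GGGCGG, some of them end to end or overlapping and some beyond the stretch printed, and its GC content was 77.7% against a median of 52.7% over 32851 windows. GGGCGG was found in all 6 members' windows and in 35.7% of all windows. Those of Timp3 lay beyond the stretch printed. TGANTCA was found in Plaur alone of the 6, once, and in 7.81% of all windows. GGAATG, the site of TEAD factors, was found once, in Timp1 (14.7% of all). AGGTCA, the half-site of NR1D1 and other nuclear receptors, was in none of the 6 windows and in 16.3% of all. TATAAA (13.6% of all) and the E-box CACGTG (7.15%) were in none of the 6.

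The TIMP genes did not move together. Timp3 (chromosome 10, 86300372 to 86349506, plus strand), whose product is bound to the matrix, was at 18.9, 28.7 and 30.95 FPKM in control replicates 1, 2 and 3. In the GSK4112 replicates it was at 15.4, 21.1 and 18.7 FPKM. The groups overlapped because control replicate 1 was low, but each GSK4112 library lay below its same-numbered control, by 0.28, 0.43 and 0.70 on the log2 scale. The log2 difference was -0.47 ± 0.20 (SE; limma adjusted p = 0.303) without the block, and Timp3 passed at the edge of the threshold with it (adjusted p = 0.0496; range over the alternatives 0.0148 to 0.5489). Without both replicate 1 libraries it was -0.56 ± 0.10 (adjusted p = 0.0298). Exons of Timp3 share 1733 bases with Syn3 on the opposite strand. Syn3 was at 0.066 to 0.135 FPKM, and the strand setting of the counting is not given in the sources used here.

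Timp1 (chromosome X, 20870166 to 20874735, plus strand), which encodes a secreted inhibitor, had the highest mean of the 9 over the 6 libraries. Serpine2 was above it in control replicate 2, and Timp2 in GSK4112 replicates 2 and 3. It was at 124, 65.5 and 64.03 FPKM in control replicates 1, 2 and 3 and at 111, 46.7 and 57.98 FPKM in the GSK4112 replicates. The replicate 1 libraries held the highest level in both groups, 1.91 and 2.13 times the mean of the others. Within each pair GSK4112 was lower, by 0.15, 0.48 and 0.14 on the log2 scale, and the overall difference of -0.26 ± 0.38 (SE; 95% interval -1.16 to 0.65) was not called in limma without (adjusted p = 0.771) or with the block (0.19; range over the alternatives 0.157 to 1.00). Timp1 lies within Syn1, which runs on the opposite strand, and shares 0 exonic bases with it.

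Timp2 (chromosome 11, 118301069 to 118355740, minus strand), whose product also takes part with MMP14 in the activation of MMP2, was the steadiest of the 3 inhibitors. It was at 67.2, 47.6 and 57.2 FPKM in control replicates 1, 2 and 3 and at 64.3, 58.8 and 60.5 FPKM in the GSK4112 replicates, so the control group spanned the other. The log2 difference was 0.11 ± 0.13 (SE; 95% interval -0.21 to 0.42; limma adjusted p = 0.727). As a share of the summed FPKM of the 3 TIMP genes, Timp1 was 42.1 to 58.98% in control and 36.9 to 58.3% in GSK4112, Timp2 32.01 to 37.6% and 33.6 to 46.5%, and Timp3 9.02 to 20.3% and 8.04 to 16.6%. The ranges overlapped for all 3 shares (exact permutation p = 0.6, 0.2 and 0.5).

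Of the metalloproteases, Mmp14 (chromosome 14, 54431612 to 54445364, plus strand) encodes a membrane-bound collagenase. It was at 28.05, 20.2 and 18.9 FPKM in control replicates 1, 2 and 3 and at 28.03, 25.1 and 25.3 FPKM in the GSK4112 replicates. The replicate 1 libraries were level and the other GSK4112 libraries lay above the other controls. The log2 difference was 0.23 ± 0.15 (SE; 95% interval -0.13 to 0.59; limma adjusted p = 0.481), and 0.35 ± 0.09 (adjusted p = 0.067; range over the alternatives 0.067 to 0.7098) without both replicate 1 libraries. Mmp2, the gelatinase A gene (chromosome 8, 92827291 to 92853420, plus strand), was at 9.15, 3.90 and 2.92 FPKM in control replicates 1, 2 and 3 and at 6.79, 3.82 and 3.74 FPKM in the GSK4112 replicates. Its replicate 1 libraries were again the high ones, and the log2 difference was -0.05 ± 0.38 (SE; 95% interval -0.95 to 0.86; limma adjusted p = 0.967). Its sign changed in 6 of 19 alternatives.

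The summed FPKM of the 3 TIMP genes was 5.65, 5.89 and 6.97 times that of Mmp2 and Mmp14 in control replicates 1, 2 and 3. In the GSK4112 replicates it was 5.49, 4.38 and 4.73 times. The GSK4112 values were all below the control values (exact two-sided permutation p = 0.1), with 5.65 and 5.49 in the replicate 1 libraries close together. This ratio leaves out Mmp11, the most abundant metalloprotease transcript tested, which lay between 436 and 813 FPKM. It therefore does not compare the TIMP genes with all metalloprotease transcripts.

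**Figure D3:**
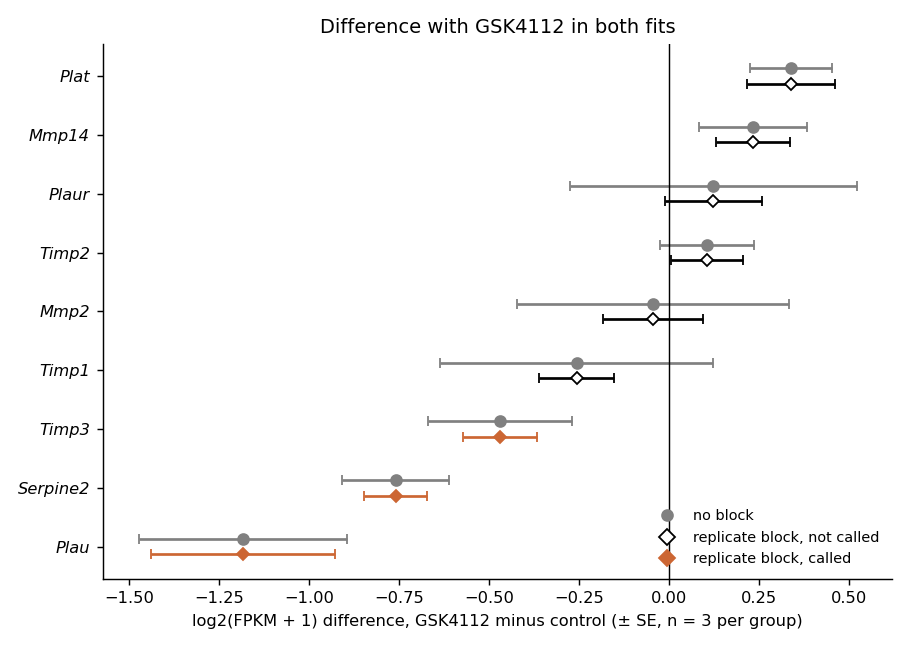
Difference between GSK4112 and control for each gene on the log2(FPKM + 1) scale (x axis, ± SE, n = 3 per group) without the block (grey circles) and with the replicate block (diamonds, filled orange where the adjusted p was under 0.05). Plau, Serpine2 and Timp3 lie at -1.18, -0.76 and -0.47 and are the 3 called with the block.

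The replicate number separated some of these genes more than the treatment did. Averaged over both groups, replicate 1 exceeded the mean of replicates 2 and 3 by 1.03 for Plaur, 1.00 for Timp1 and 0.96 for Mmp2 on the log2 scale. For the same genes the treatment difference was 0.12, -0.26 and -0.05. Timp3 ran the other way (-0.49 by replicate number). The averages for Plat (-0.03) and Plau (0.40) join opposite directions: replicate 1 was 1.16 and 2.09 times the mean of the others in control and 0.817 and 0.831 times in GSK4112. The SE of Plaur fell from 0.40 to 0.14, that of Timp1 from 0.38 to 0.10 and that of Mmp2 from 0.38 to 0.14 with the block, and none of them was called. Serpine2, Mmp14 and Timp2 lay in between, at 0.35, 0.32 and 0.23, with replicate 1 the highest in both groups.

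**Figure D4:**
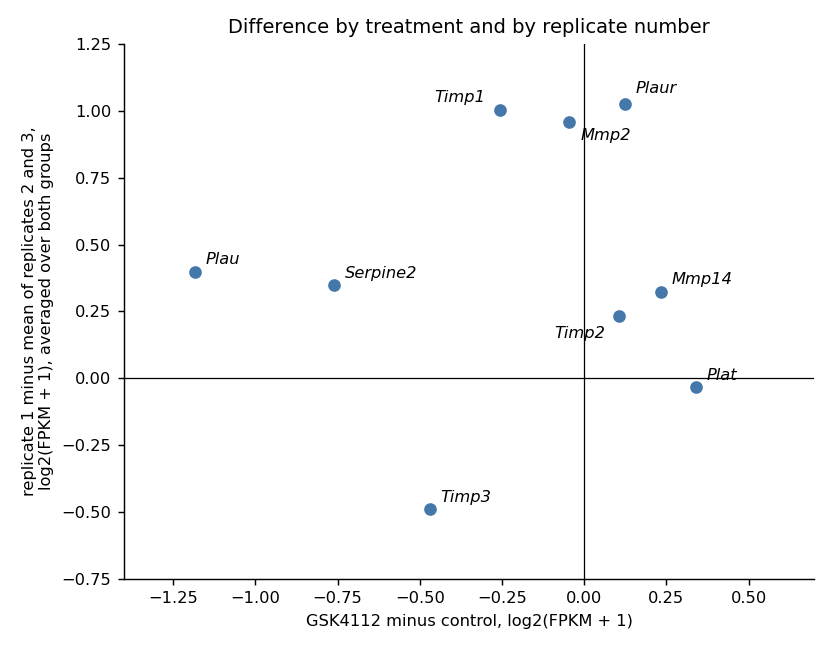
For each gene, the treatment difference (x axis, GSK4112 minus control) against the difference by replicate number (y axis, replicate 1 minus the mean of replicates 2 and 3, averaged over both groups), both on the log2(FPKM + 1) scale. Plaur, Timp1 and Mmp2 lie near 1.0 on the y axis and near the middle of the x axis, while Plau and Serpine2 lie farthest to the left.

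Summed markers of theca and stroma, leukocytes, surface epithelium and endothelium were highest in replicate 1 of each group, whereas those of luteal cells and oocytes were not. The summed level of 8 markers of theca and ovarian stroma was 58.3 to 267 FPKM in control and 78.1 to 146 FPKM in GSK4112. Most of this sum came from Acta2. Ptch1 of the same list ran the other way, lowest in replicate 1 of each group (3.55 FPKM in control and 3.97 FPKM in GSK4112). The theca enzyme gene Cyp17a1 stayed at or below 0.0555 FPKM. The 6 leukocyte markers summed to 6.83 to 39.6 FPKM in control and 16.1 to 36.99 FPKM in GSK4112, mostly from Lyz2, while the pan-leukocyte gene Ptprc did not exceed 0.0678 FPKM. The 5 markers of surface epithelium summed to 2.56 to 6.67 and 1.62 to 5.92 FPKM. The 5 endothelial markers summed to 0.324 to 0.684 and 0.358 to 0.786 FPKM, and each stayed below 1 FPKM. The 5 oocyte markers summed to 0.14 to 2.50 and 0.0877 to 1.36 FPKM, highest in control replicate 1 and GSK4112 replicate 3. The 4 luteal markers summed to 46.04 to 102 and 69.2 to 120 FPKM, lowest in replicate 1 of control and highest in replicate 1 of GSK4112. Of these lists the luteal gene Akr1c18, which encodes the enzyme that inactivates progesterone, fell with the block (log2 difference -1.80; limma adjusted p = 0.163 without and 0.0063 with it). The other luteal markers Lhcgr, Ptgfr and Star were displaced upward (log2 differences 1.115, 0.40 and 0.36). Neither they nor any other tested marker of these lists passed. The part of these cells, or of dividing cells, in the levels of the protease genes was not tested. In bulk RNA fewer cells of a type and less RNA per cell cannot be told apart.

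The other genes of these systems were taken from 7 lists with 93 genes, of which 88 were in the table and 49 were tested. Of the 49, none rose and 1 fell in limma without the block, against 1.03% of all genes. At an unadjusted p under 0.05 there were 12 (17% of all genes), and limma-voom called 2 (1.4% of all genes). With the block 1 rose and 6 fell, 14.3% of the 49 against 6.89% of all genes. The median log2 difference of the 49 was -0.15, that of the 9 members -0.05 and that of all tested genes 0.05. The 39 untested genes were below the filter, among them plasminogen itself (Plg), which did not exceed 0.0421 FPKM in any library, the plasmin inhibitor gene Serpinf2 and Timp4.

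Of 6 tested genes of plasminogen binding, activation and clearance none passed, with or without the block. In limma 2 were at an unadjusted p under 0.05, and limma-voom called 0. The log2 difference was below 0 for 3 of the 6, with a median of -0.04. The 2 most abundant, given here, were both lower. Anxa2, a cell-surface binding protein for plasminogen and tissue plasminogen activator, was at 233 ± 36.5 and 177 ± 15.1 FPKM (control and GSK4112, mean ± SD, n = 3; limma adjusted p = 0.239). Eno1, a glycolytic enzyme that also binds plasminogen, was at 105, 465 and 104 FPKM in control replicates 1, 2 and 3 and at 78.2, 62.9 and 70.1 FPKM in GSK4112 (adjusted p = 0.3095), with control replicate 2 far above the rest. It passed only without both replicate 1 libraries and with the block.

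Of 10 tested serpins and other serine protease inhibitors none passed without the block (1 at an unadjusted p under 0.05 in limma; limma-voom called 0), and 1 fell with it. This was Serpinb6b, an intracellular serpin (115 ± 28.7 and 85.2 ± 17.3 FPKM; adjusted p = 0.365 without and 0.0464 with the block; range 0.0225 to 0.715). Its log2 difference was -0.42, and -0.22 without control replicate 1. Its paralog Serpinb6a was at 84.6 ± 10.5 and 74.6 ± 2.85 FPKM (adjusted p = 0.473), and reads of such close relatives may have been split between them.

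Of 5 other metalloproteases tested none passed, with or without the block (1 at an unadjusted p under 0.05 in limma; limma-voom called 0), with a median log2 difference of 0.28. Mmp11, stromelysin 3, was the most abundant of all metalloprotease transcripts tested, at 548 ± 108 and 680.2 ± 200.3 FPKM (adjusted p = 0.63), against a mean of 24.3 FPKM for Mmp14 over the 6 libraries. Mmp23 was at 26.5 ± 3.06 and 26.96 ± 2.90 FPKM (adjusted p = 0.945). The inducible proteases Mmp3, Mmp9 and Mmp13 did not exceed 0.0501 FPKM.

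Of 8 tested regulators of metalloproteases none passed without the block (2 at an unadjusted p under 0.05; limma-voom called Itgb3), and 1 rose and 2 fell with it. Pcsk5, a proprotein convertase, was at 17.1 ± 7.28 and 5.54 ± 2.73 FPKM with groups that did not overlap (log2 difference -1.48; limma adjusted p = 0.111 without and 0.0018 with the block; range 1.14e-05 to 0.379). Cav1, the caveolin gene, was at 31.5 ± 9.37 and 21.7 ± 6.07 FPKM (0.357 and 0.0199; range 0.0071 to 0.705), with a log2 difference of -0.51, and -0.29 without control replicate 1. Itgb3, the integrin beta 3 subunit of the vitronectin receptor, was at 4.23 ± 0.60 and 7.63 ± 0.987 FPKM (0.0594 and 0.0102; range 0.0013 to 0.263). The most abundant of the list, Bsg, was at 331 ± 114 and 249 ± 14.8 FPKM (0.481 without the block).

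Of 10 tested ADAMTS proteases, secreted metalloproteases with thrombospondin motifs, 1 fell without the block and 2 fell with it. Adamts19 fell from 4.95 ± 1.81 to 1.12 ± 0.32 FPKM (log2 difference -1.46 ± 0.23 SE; limma adjusted p = 0.0477), and every GSK4112 library lay below every control library. Its adjusted p over the alternatives ran from 8.96e-05 to 0.243, and it lost the call without control replicate 2 or 3, without any 1 of the GSK4112 replicates, without a filter and without the variance trend. Adamts5, an aggrecanase, was at 4.83 ± 3.44 and 1.67 ± 1.04 FPKM (adjusted p = 0.321 without and 0.0312 with the block; range 0.0015 to 0.647). Its log2 difference was -1.03, and -0.58 without control replicate 1. Adamts1, a protease known to be induced in granulosa cells around ovulation, was at 60.5 ± 13.8 and 47.5 ± 6.29 FPKM (0.427) and Adamts9 at 20.7 ± 4.60 and 25.5 ± 5.49 FPKM (0.531).

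The 6 tested ADAM sheddases had a median log2 difference of 0.20, and none passed in limma with or without the block (2 at an unadjusted p under 0.05; limma-voom called 0). Adam10 was at 41.6 ± 2.64 and 49.8 ± 2.06 FPKM (adjusted p = 0.194) and Adam9 at 32.9 ± 9.83 and 34.8 ± 9.22 FPKM (0.886). Of 4 further genes listed as secreted serine proteases none passed without the block. In limma 1 was at an unadjusted p under 0.05, and limma-voom called 0. Prss23 fell with the block, from 95.6 ± 47.3 to 39.1 ± 23.9 FPKM (limma adjusted p = 0.228 without and 0.0026 with it, range 1.52e-05 to 0.561). Prss35, another gene of this list, was at 967 ± 388 and 790.5 ± 214 FPKM (0.795) and Htra1 at 292 ± 102 and 326 ± 114 FPKM (0.836).

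**Figure D5:**
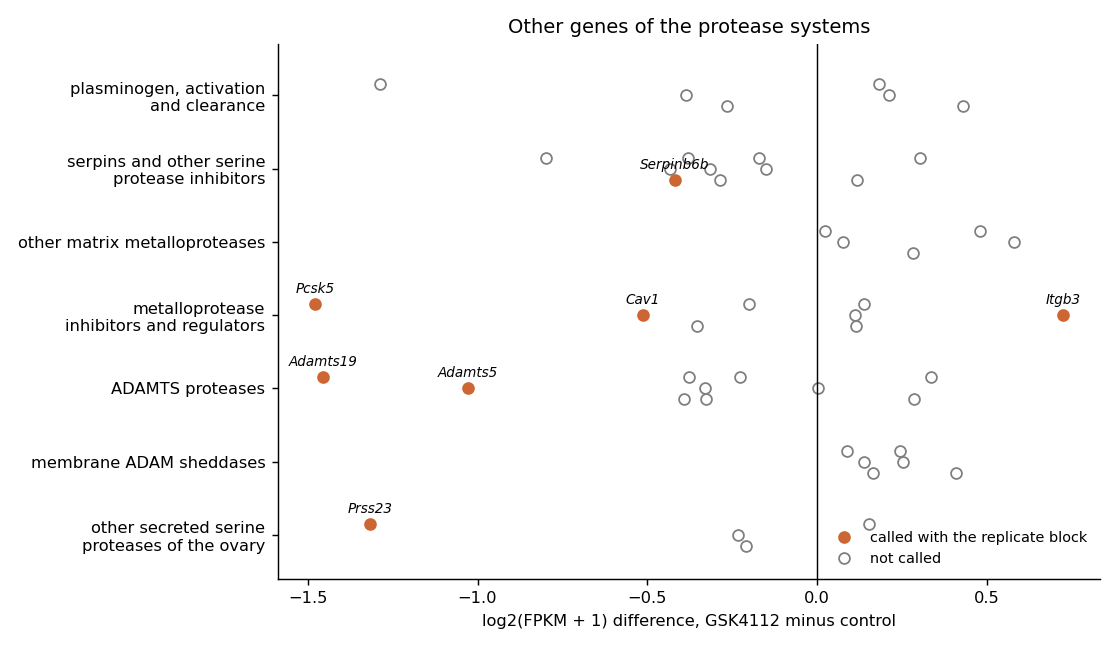
Difference between GSK4112 and control on the log2(FPKM + 1) scale (x axis) for the 49 tested genes of the 7 lists (y axis), with the genes called with the replicate block filled and named. The 1 called higher is Itgb3, the 6 called lower include Prss23 and Pcsk5, and Adamts19 was also called without the block.

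Genes with the profile most like those of Serpine2 and Plau were sought by the root mean square difference between centred log2(FPKM + 1) profiles over the 6 libraries. Genes with predicted-gene or clone-type symbols were left out of this search. Nearest to Serpine2 were Pqlc1 (0.0453) and Hsd11b2 (0.0716), the enzyme gene that inactivates glucocorticoids. Pqlc1 was at 15.7, 11.7 and 10.7 FPKM in control replicates 1, 2 and 3 and 8.54, 6.11 and 7.05 FPKM in GSK4112. Nearest to Plau were Atg16l2 (0.164) and Rgs2 (0.166), a regulator of G protein signalling. Atg16l2 was at 19.4, 7.96 and 10.6 FPKM in control replicates 1, 2 and 3 and 5.27, 4.55 and 4.66 FPKM in GSK4112, so it too had a single high control library. Of these 4 none passed in limma without the block (adjusted p = 0.108, 0.138, 0.121 and 0.148 in the order named), and Pqlc1, Hsd11b2 and Atg16l2 fell with it (0.0144, 0.0348 and 0.023), while Rgs2 did not pass (0.0787). The Plau profile was matched less closely than that of Serpine2. These 4 genes were picked for their likeness over the same 6 libraries. Similar results were built into that choice and are no independent evidence.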

How the data were processed

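The authors deposited a single table of FPKM values for 27151 Ensembl gene IDs in 6 columns, each matched by name to its sample title. Genome build GRCm38 comes from the submitters' processing notes; aligner, counter, annotation release and strandedness were not given in the sources used here. Symbols and coordinates came from GENCODE M21 on GRCm38 (27098 IDs matched, 53 did not). From the FPKM steps and exon lengths, normalizing totals of 16559250 to 18158275 fragments per library were read, and 92.8 to 93.1% of the values under 500 fragments then came out whole (tolerance 0.01).

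The 12181 genes whose mean reached 1 FPKM were fitted on log2(FPKM + 1) by limma (version 3.58.1, R version 4.3.3) with a variance trend, two-sided, calling a Benjamini-Hochberg adjusted p under 0.05 over all genes. A fold change on this scale understates the change of low genes. The fit without the block was tested on simulated fragment counts that held no replicate effect. The fit with the block was not tested in this way. Same-numbered libraries deviated together from their group means, with correlations over genes of 0.665, 0.326 and 0.213, above the limit of 0.1 for pairing. The replicate number was therefore used as a block beside the fit without it, and the pairing comes from the data. Deviations within a group cancel out, so the 0.665 of replicate 1 by itself makes replicates 2 and 3 correlate positively on the whole. Their 0.326 and 0.213 therefore do not show a pairing by number. GSK4112 replicates 2 and 3 correlated better with the other's control (0.53 and 0.357). Named were all members, each list's called genes and its 2 most abundant, and the 2 nearest profiles of the 2 members with the lowest p; called marker genes were named after their values were seen. Members, lists and tests were chosen with earlier results of these data known. A gene of these lists is not reported here.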

Additional observations from a re-analysis of the deposited data

How the results depend on the processing

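Against 126 genes called over the whole table, 26 were called without a filter, 6 at an adjusted p under 0.01, 839 with the replicate block and 830 with sample weights. Chosen after seeing the data, leaving out both replicate 1 libraries gave 856, the same with the block 1139 and limma-voom with the block 1398. Leaving out 1 replicate gave 0 to 153 calls; at 0, without control replicate 3 or GSK4112 replicate 2 or 3, there were 1843, 1224 and 1318 genes at an unadjusted p under 0.05, and without control replicate 2 there were 8 calls.

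Of the 9 members, 0 were called without the block. With the replicate block 3 were (against 6.89% of all tested genes) and with sample weights 3 (Plau, Serpine2 and Plat, against 6.81%). Without both replicate 1 libraries 4 were (against 7.03%), and 4 with the block as well (against 9.35%). With limma-voom and the block 3 were, against 1398 of 12170 genes. Leaving out 1 replicate gave 0 to 1 (Plau, without control replicate 1). Plau, Serpine2, Timp3, Plat and Mmp14 kept their direction in all 19 alternatives, while Mmp2 changed sign in 6, Plaur in 3 of 18, Timp1 in 2 and Timp2 in 1.

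Of the 49 other genes of these systems, 1 was called without the block. With the replicate block 7 were (against 6.89% of all tested genes) and with sample weights 5 (against 6.81%). With limma-voom 2 were (against 1.4%), and with limma-voom and the block 14 (against 1398 of 12170 genes). Without both replicate 1 libraries there were 7 (against 7.03%), and 10 with the block (against 9.35%). None was called without a filter, with a minimum mean of 5 FPKM, without the trend or at an adjusted p under 0.01 (0 in each), and leaving out 1 replicate gave 0 to 1. The minimum of 5 FPKM removed Adamts19, the gene called without the block, so its call could not be repeated there. Beside the calls given in the report, the block changed none of a gene named there. The cause of these shifts was not tested. Plaur, at 36 to 143 fragments per library, is the member that depth limits most.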
